A study of Mus musculus with 6 samples.

Results

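The genes described here make, activate, assemble, store and release fatty acids. A total of 40 symbols were listed by function, from de novo fatty acid synthesis through glycerolipid assembly to the lipid droplet and its lipases. Of these, 39 had a row in the tables of all 6 libraries, which hold 34745 genes each, and Gpat3 had no row. The libraries came from CD8+ effector T cells (Teff) of Scd-1-/- mice (B6.129-Scd1tm1Ntam/J, deficient in every tissue) and of wild-type (WT) C57BL/6J mice, with 3 libraries per genotype. All mice were males of 6 to 8 weeks. Splenic CD8+ T cells were selected with magnetic beads and stimulated with anti-CD3 (5 μg/mL), anti-CD28 (0.5 μg/mL) and IL-2 (100 U/mL) for 3 days. Both genotypes then grew with IL-2 alone for another 3 days, and cells were collected on day 6. The WT mice were bought and the Scd-1-/- mice were a gift, so source and genotype cannot be told apart. The methods state, for all experiments alike, that they were repeated independently, but neither they nor the labels say whether these replicates were separate animals, so p-values measure the spread between these libraries, which may be technical.

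In a lipogenic cell, citrate carbon is turned into acetyl-CoA and malonyl-CoA, and fatty acid synthase joins these to palmitate. Scd-1, the enzyme missing here, puts the first double bond into saturated acyl chains, and its oleate is a favoured substrate of the acyltransferases that build phospholipids and triacylglycerol. Activated acyl-CoA is placed on glycerol-3-phosphate step by step, and the end products are membrane phospholipids or the triacylglycerol of lipid droplets. Lipases at the droplet surface release the chains again, helped by cofactors and held back by inhibitors. Activated T cells are known to raise fatty acid synthesis while they divide. The comparison of genotypes asks which of these genes stand at another level in Teff cells that lack Scd-1.

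The labels were checked on Scd1 itself. Its counts were 4272, 3074 and 3761 in WT replicates 1, 2 and 3 and 30, 36 and 20 in the Scd-1-/- libraries, a log2 fold change of -7.04 ± 0.28 (SE; adjusted p = 0.00011, edgeR quasi-likelihood test). Libraries held 14034479 to 15866216 counts, of which the 39 genes took 0.322 to 0.408% in WT and 0.315 to 0.356% in Scd-1-/- cells. All 6 CD8 T cell markers passed a mean FPKM of 1 (FPKM is the count scaled to gene length and library total), with a summed level of 1885 to 2379 FPKM in WT and 1837 to 2108 FPKM in Scd-1-/- libraries. The B cell markers Ms4a1, Pax5 and Blnk and the adipocyte markers Lep, Cidec, Plin1 and Fabp4 were at 0 in all libraries, and the B cell markers Cd22 and Cd79a stayed at or under 0.158 FPKM. Cd79b, also on the B cell list, stood at 9.41 to 10.7 FPKM in WT and at 3.13 to 7.90 FPKM in Scd-1-/- libraries. Summed over 5 natural killer cell markers, the level was 5.87 to 6.18 FPKM in WT and 15.6 to 28.8 FPKM in Scd-1-/- libraries. Of these markers, Eomes stood at 3.62 to 4.18 FPKM in WT and at 9.34 to 14.5 FPKM in Scd-1-/- libraries. Klre1 stood at 0.688 to 1.71 and 4.11 to 5.41 FPKM, and Klrb1c at 0.501 to 0.938 and 1.66 to 9.39 FPKM. Klri2 overlapped between the genotypes, and Ncr1 stayed at or under 0.221 FPKM. The mitochondrially encoded share of counts was 1.66 to 1.78% in WT and 2.25 to 3.20% in Scd-1-/- libraries. Of the 9 myeloid markers with a row, Adgre1, Mpo and S100a9 were at 0 in all libraries, and the summed level was 8.80 to 19.9 FPKM in WT and 11.9 to 36.5 FPKM in Scd-1-/- libraries. Among them, Cd14 stood at 0.179 to 0.461 FPKM in WT and at 1.14 to 1.89 FPKM in Scd-1-/- libraries, and Itgax at 0.524 to 2.72 and 1.87 to 8.21 FPKM. Cd8a itself stood at 43.2 to 47.6 FPKM in WT and at 27.9 to 36.6 FPKM in Scd-1-/- libraries, without overlap (log2 fold change -0.46; unadjusted p = 0.011, adjusted p = 0.30, edgeR). The part of these differences in the results was not tested.

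Libraries of replicate 1 stood apart. A chi-square of counts per degree of freedom was 19.3 between WT replicate 1 and Scd-1-/- replicate 1, and 51.3 to 62.1 between either of them and the other replicates of its own genotype. Between replicates 2 and 3 it was 14.8 in WT and 12.2 in Scd-1-/- cells, and between the genotypes within replicates 2 and 3 it was 35.7 to 63.9, about as large as the gap to replicate 1. The labels do not say what a replicate number stands for. Each result is therefore read with the 6 libraries, and, where it matters, with the replicate number as a block in the fit (the blocked fit) and with replicates 2 and 3 alone.

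Promoter windows are shown for 4 genes on which the results turn. These are Abhd5, the gene with the largest positive difference among those over the FPKM minimum explained below, Lpcat1 and Mboat1, acyltransferase genes with negative point estimates that did not pass adjustment in the fit of genotype alone, and Fasn, which differed strongly between replicates. Each window runs from 250 bases before to 50 bases after the start given by RefSeq (GRCm38.p6), 5′ to 3′ on the gene's own strand. Capitals mark the letters CCAAT (the NF-Y box), GGGCGG (the Sp1 box) and ACGTG (the core of hypoxia response elements, also the inner part of the E-box CACGTG) on either strand, and adjoining capitals are neighbouring or overlapping matches. The windows are at chr9:122351366-122351665 (+), chr13:73466981-73467280 (+), chr13:30136240-30136539 (+) and chr11:120824498-120824797 (-).
Abhd5: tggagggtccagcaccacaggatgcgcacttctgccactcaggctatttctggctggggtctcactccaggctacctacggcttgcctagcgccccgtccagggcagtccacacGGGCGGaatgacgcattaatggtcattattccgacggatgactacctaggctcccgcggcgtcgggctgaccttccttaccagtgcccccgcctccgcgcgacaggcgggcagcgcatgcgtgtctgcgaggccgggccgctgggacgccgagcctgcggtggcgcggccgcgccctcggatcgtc
Lpcat1: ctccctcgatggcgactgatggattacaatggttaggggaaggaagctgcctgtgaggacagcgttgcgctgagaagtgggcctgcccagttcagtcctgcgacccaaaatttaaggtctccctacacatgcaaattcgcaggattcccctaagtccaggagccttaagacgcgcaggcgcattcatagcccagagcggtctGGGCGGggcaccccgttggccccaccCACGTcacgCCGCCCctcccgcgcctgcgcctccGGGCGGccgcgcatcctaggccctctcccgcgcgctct
Mboat1: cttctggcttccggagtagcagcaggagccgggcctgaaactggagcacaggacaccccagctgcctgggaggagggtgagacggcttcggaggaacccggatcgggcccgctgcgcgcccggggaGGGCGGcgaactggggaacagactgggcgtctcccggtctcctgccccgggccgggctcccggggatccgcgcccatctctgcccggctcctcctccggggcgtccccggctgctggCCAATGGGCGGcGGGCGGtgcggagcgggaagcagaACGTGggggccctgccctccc
Fasn: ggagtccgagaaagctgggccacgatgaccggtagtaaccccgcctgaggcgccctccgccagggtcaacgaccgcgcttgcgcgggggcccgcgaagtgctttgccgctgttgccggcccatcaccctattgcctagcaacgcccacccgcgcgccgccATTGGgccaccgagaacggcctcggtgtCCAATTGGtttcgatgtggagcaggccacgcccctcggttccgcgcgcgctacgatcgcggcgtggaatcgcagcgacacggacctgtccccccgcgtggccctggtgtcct

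Of the 39 genes, 35 matched a RefSeq window, 50 windows in all, and Agpat5, Dgat1, Dgat2 and Gpat4 did not. GGGCGG was in 70% of these 50 windows and in 35.7% of all 32851 windows, CCAAT in 46% and 37.4%, and ACGTG in 30% and 19.6%. The sterol regulatory element TCACNCCAC, read on both strands, was in 1.24% of all windows and in 1 window here, that of Acsl1. Fasn held 3 CCAAT matches, 2 of them in the palindrome CCAATTGG, and no GGGCGG, whereas Abhd5 held 1 GGGCGG and no CCAAT. Lpcat1 held 3 GGGCGG and 1 ACGTG, and Mboat1 held both of these in the same numbers and 1 CCAAT. These are matches of letters, and no binding was measured. The shares over all windows were not limited to genes expressed here or matched for GC content.

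None of the genes passed the thresholds of the study between genotypes. A mean FPKM of at least 1 over the 6 libraries was reached by 33 of the 39 genes. The study called a gene at p under 0.001 with a log2 fold change of 1 or more in size. By that rule 0 of the 33 were called, against 0.738% of all 9627 genes tested, and 0 had a Benjamini-Hochberg adjusted p under 0.05, against 0.114% (edgeR). DESeq2 also gave 0 at both thresholds, which 1.67% and 2.76% of all genes tested passed. An unadjusted p under 0.05 was reached by 3 genes (9.09%), near the 10.1% of all genes tested. These were Abhd5, higher in Scd-1-/- cells (1 gene, 3.03%, against 5.42% of all genes tested), and Gpam and Lpcat1, both lower (6.06%, against 4.68%). DESeq2 gave 4 (12.1%, against 11.1%), the same 3 and Mboat1. A total of 20 genes had a point estimate below 0 and 13 above it, with a median log2 fold change of -0.077, and the median over all genes tested was -0.00051.

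Counts of calls rose in the fits that take the replicate number into account, among these genes and among all genes. In the blocked fit, 0 genes met the study's thresholds (1.91% of all genes tested), 1 gene, Mboat1, had an adjusted p under 0.05 (4.70% of all genes tested), and 11 had an unadjusted p under 0.05, or 33.3% against 22.4% of all genes tested. Of these 11, Abhd5 and Acsl4 were higher in Scd-1-/- cells (6.06%, against 11.3%). Lower were Acly, Dgat2, Fasn, Gpam, Gpat4, Lpcat1, Lpin2, Mboat1 and Mboat7 (27.3%, against 11.2%). The median SE of the 33 fold changes was 0.20 without the block and 0.12 with it. With replicates 2 and 3 alone, 6 genes had an adjusted p under 0.05 (18.2%, against 12.6% of all genes tested). Abhd5 rose (3.03%, against 6.53%), and Dgat2, Fasn, Lpcat1, Lpin2 and Mboat1 fell (15.2%, against 6.07%). An unadjusted p under 0.05 was reached by 14 (42.4%, against 29.4%), these 6 and Acly, Acsl4, Agpat4, Dgat1, Gpam, Hilpda, Mboat7 and Plin3. Among the 33 genes Abhd5 was then the 1 past the thresholds of the study, which 3.83% of all genes tested passed. Levels scaled by TMM did not overlap between the genotypes for 7 genes (21.2%, against 16.0% of all genes tested), namely Abhd5, Acly, Acsl4, Agpat2, Gpam, Gpat4 and Lpcat1. In the deposited FPKM the count was also 7, with Mboat7 in place of Agpat2.

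**Figure D1:**
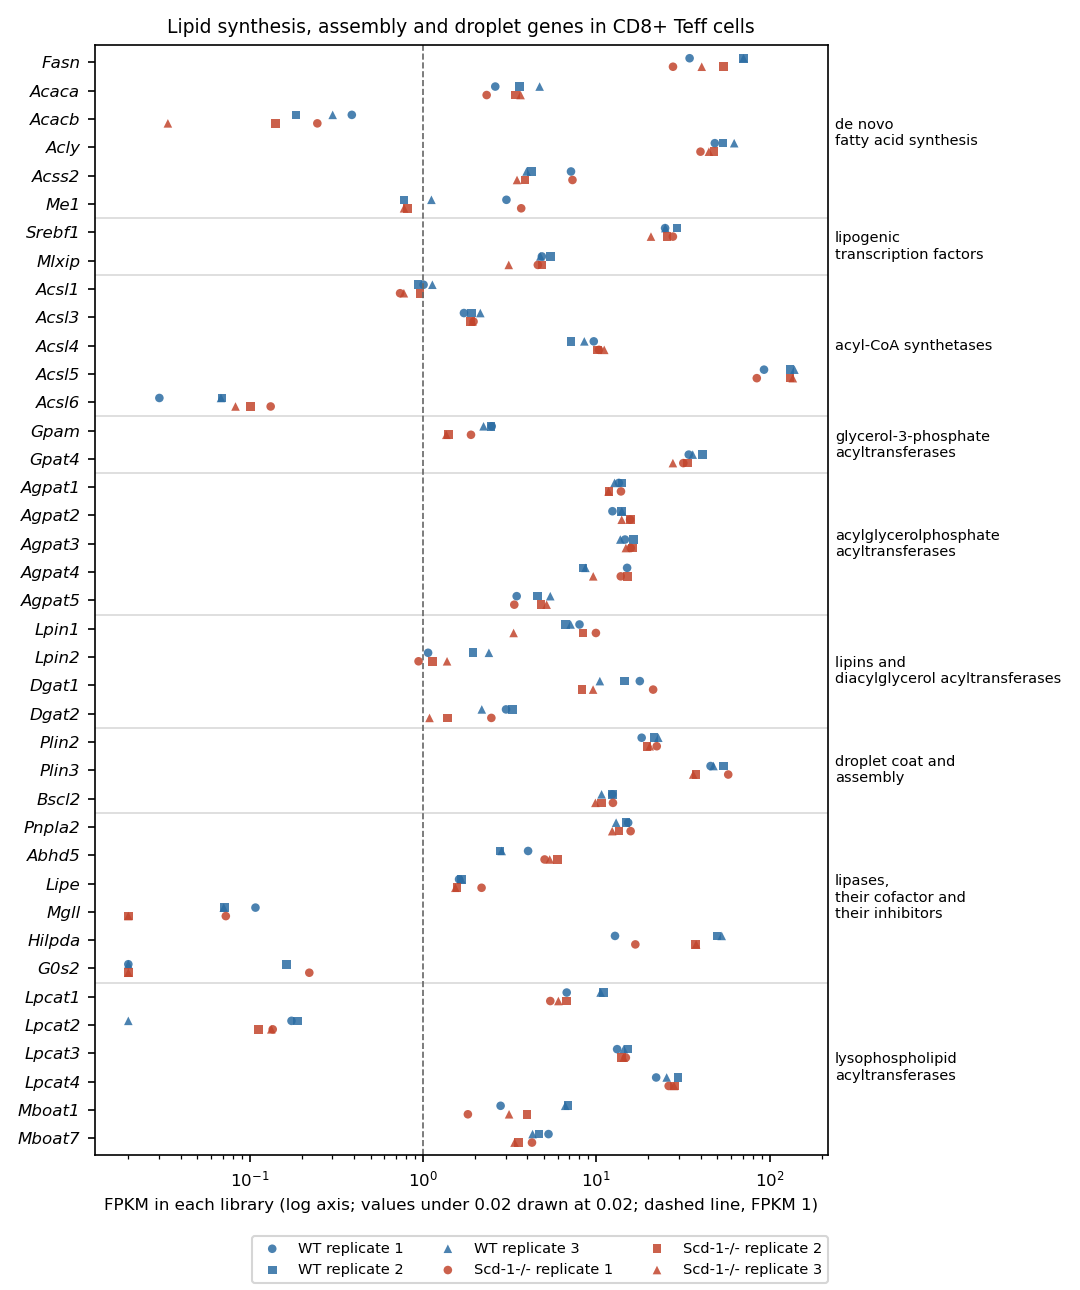
FPKM of the 39 genes in each of the 6 libraries on a log axis, grouped by function, with WT in blue, Scd-1-/- in red and a symbol for each replicate number. Values under 0.02 are drawn at 0.02, and the dashed line marks FPKM 1. Acsl5 (84.3 to 139 FPKM) is the most abundant, and Acsl6, Mgll, G0s2 and Lpcat2 stay under 0.23 FPKM in every library.

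The genes of de novo fatty acid synthesis were lower in point estimate in Scd-1-/- cells, except Me1, but in the fit of genotype alone none reached an unadjusted p of 0.05. Fasn, which encodes fatty acid synthase, gave 7293, 13832 and 13998 counts in WT replicates 1, 2 and 3 and 6004, 10609 and 8962 counts in Scd-1-/- replicates 1, 2 and 3. WT replicate 1 lay below 2 of the Scd-1-/- libraries, so the genotypes overlapped, while each Scd-1-/- library lay below the WT library of the same number. The mean was 58.7 ± 20.9 FPKM for WT and 40.8 ± 13.2 FPKM for Scd-1-/- cells (SD, n = 3). Fasn had a log2 fold change of -0.50 ± 0.32 (SE; adjusted p = 0.66, edgeR), 70.8% of the WT level, and -0.48 ± 0.11 in the blocked fit (unadjusted p = 0.0027, adjusted p = 0.053).

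Acly, the ATP citrate lyase that supplies cytosolic acetyl-CoA, gave 5998, 6187 and 7274 counts in WT and 5088, 5504 and 5799 counts in Scd-1-/- replicates. All Scd-1-/- libraries lay below all WT libraries, at a log2 fold change of -0.29 ± 0.13 (SE; adjusted p = 0.52). Its blocked value was -0.29 ± 0.09, with an unadjusted p of 0.016. Acaca, the cytosolic acetyl-CoA carboxylase that makes malonyl-CoA, gave 804, 1030 and 1359 counts in WT and 736, 977 and 1177 counts in Scd-1-/- replicates. The ranges overlapped, and the log2 fold change was -0.19 with a 95% confidence interval from -0.77 to 0.39.

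Acacb, the carboxylase isoform at the mitochondrial surface, was under the FPKM minimum, with 77, 34 and 56 counts in WT and 50, 26 and 7 counts in Scd-1-/- replicates. When all 17192 genes with a count were fitted, its log2 fold change was -1.04 ± 0.58 (SE; adjusted p = 0.69). The blocked value was -1.20 (unadjusted p = 0.023). With replicates 2 and 3 alone it was -1.45 (unadjusted p = 0.000997, adjusted p = 0.011), past the thresholds of the study, where the lowest library was Scd-1-/- replicate 3 with 7 counts. In 2 other suppliers of the pathway, Me1 and Acss2, replicate 1 lay above the other libraries in both genotypes. Me1, the cytosolic malic enzyme that makes NADPH, gave 257 counts in WT replicate 1 and 321 in Scd-1-/- replicate 1, and 61 to 89 counts in the other 4 libraries. Acss2, which makes acetyl-CoA from acetate, gave 1388 and 1453 counts in the replicates numbered 1 and 702 to 759 counts in the rest. The log2 fold change between genotypes was 0.11 for Me1 (interval from -1.59 to 1.82) and -0.047 for Acss2 (interval from -0.86 to 0.76).

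The transcription factors of lipogenesis were both lower in point estimate by small amounts. Srebf1, which encodes SREBP-1, an activator of Fasn, Acaca and Scd1, gave 3482, 3779 and 3275 counts in WT and 3964, 3324 and 3019 counts in Scd-1-/- replicates. In FPKM the range was 24.9 to 29.3 in WT and 20.7 to 27.7 in Scd-1-/- libraries, with overlap, and Srebf1 had a log2 fold change of -0.077 (95% interval from -0.42 to 0.27; adjusted p = 0.92). Mlxip, the MondoA glucose sensor, stood at 4.76 to 5.43 FPKM in WT and at 3.13 to 4.86 FPKM in Scd-1-/- libraries (log2 fold change -0.24, interval from -0.68 to 0.21).

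Acyl-CoA synthetases trap a fatty acid as its CoA ester. Acsl5 carried 86.5 to 92.8% of the summed FPKM of the 5 Acsl genes in every library, and its mean was 121 ± 24.6 FPKM for WT and 117 ± 28.6 FPKM for Scd-1-/- cells (SD, n = 3; log2 fold change -0.017, 95% interval from -0.53 to 0.49). Acsl4, which prefers arachidonate and other polyunsaturated chains, took 5.09 to 10.6% of the family. It stood at 9.67, 7.16 and 8.53 FPKM in WT and at 10.4, 10.2 and 11.1 FPKM in Scd-1-/- replicates 1, 2 and 3, so that the genotypes did not overlap. Acsl4 had a log2 fold change of 0.34 ± 0.16 (SE; adjusted p = 0.53), and 0.35 ± 0.13 with the block (unadjusted p = 0.024). Acsl3, found on nascent droplets, had 1.72 to 2.14 FPKM over all libraries and a log2 fold change of 0.023. Acsl1 and Acsl6 were under the FPKM minimum, with 139 to 195 and 8 to 36 counts per library and log2 fold changes of -0.30 ± 0.23 and 0.92 ± 0.49 (SE; adjusted p = 0.75 and 0.67).

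The first acylation of glycerol-3-phosphate was represented by Gpam, which encodes the mitochondrial enzyme GPAT1, and Gpat4, which encodes an enzyme of the endoplasmic reticulum. Gpam (chr19:55067268-55127238, minus strand, GRCm38) gave 145, 133 and 122 counts in WT and 113, 76 and 83 counts in Scd-1-/- replicates. Every Scd-1-/- library lay below every WT library. Its mean was 2.40 ± 0.14 FPKM for WT and 1.56 ± 0.29 FPKM for Scd-1-/- cells (SD, n = 3), and the log2 fold change was -0.60 ± 0.24 (SE; unadjusted p = 0.035, adjusted p = 0.45). Gpat4 took 93.2 to 96.0% of the summed FPKM of the pair. It stood at 34.1 to 40.8 FPKM in WT and at 27.7 to 33.7 FPKM in Scd-1-/- libraries, ranges that did not overlap (log2 fold change -0.23 ± 0.14, SE; adjusted p = 0.64; blocked unadjusted p = 0.0496).

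The second acylation, from lysophosphatidic to phosphatidic acid, is shared by the 5 Agpat genes, and no one of them dominated. Agpat1, Agpat2, Agpat3 and Agpat4 each took 14.6 to 28.5% of the family's summed FPKM, and Agpat5 took 5.38 to 9.94%. None reached an unadjusted p of 0.05 with or without the block. The largest difference was that of Agpat4, with 15.1 FPKM in WT replicate 1, 8.40 and 8.66 FPKM in WT replicates 2 and 3, and 13.8, 15.2 and 9.60 FPKM in Scd-1-/- replicates 1, 2 and 3. For Agpat4 the log2 fold change was 0.28 with an interval from -0.39 to 0.95. Agpat2, the isoform whose loss causes generalized lipodystrophy, had a log2 fold change of 0.19 (interval from -0.14 to 0.53).

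Lipins take the phosphate off phosphatidic acid, and the Dgat enzymes add the last acyl chain of triacylglycerol. Dgat1 gave 1485, 1119 and 819 counts in WT and 1819, 640 and 835 counts in Scd-1-/- replicates, with the highest value in both genotypes in replicate 1. Its log2 fold change was -0.11, with a 95% interval from -0.996 to 0.77. For Dgat1 it was -0.20 ± 0.19 in the blocked fit and -0.45 with replicates 2 and 3 alone (unadjusted p = 0.036, adjusted p = 0.14, edgeR). Dgat2, an enzyme that contributes to droplet growth, gave 103, 104 and 70 counts in WT and 87, 44 and 39 counts in Scd-1-/- replicates. Scd-1-/- replicate 1 lay between the WT libraries, and the other 2 Scd-1-/- libraries lay below all WT libraries. The mean was 2.83 ± 0.58 FPKM for WT and 1.65 ± 0.73 FPKM for Scd-1-/- cells (SD, n = 3). For Dgat2 the log2 fold change was -0.75 ± 0.37 (SE; adjusted p = 0.56), -0.80 ± 0.26 in the blocked fit (unadjusted p = 0.017) and -1.11 with replicates 2 and 3 alone (adjusted p = 0.048).

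Dgat1 held 81.5 to 89.8% of the FPKM of the 2 Dgat genes. The ratio of Dgat1 to Dgat2 FPKM was 5.91, 4.41 and 4.796 in WT and 8.57, 5.96 and 8.78 in Scd-1-/- replicates, so the lowest Scd-1-/- value lay just above the highest WT value. For one such value in 3 and 3 libraries, the smallest two-sided p of an exact permutation test is 0.1. Lpin2 gave 272, 456 and 572 counts in WT and 246, 268 and 366 counts in Scd-1-/- replicates, with each Scd-1-/- library below the WT library of the same number. Its log2 fold change was -0.62 ± 0.30 (SE; adjusted p = 0.55), and -0.57 ± 0.16 in the blocked fit (unadjusted p = 0.0086). Lpin1, the more abundant of the 2 lipins here, spread from 303 to 887 counts within Scd-1-/- cells against 532 to 695 counts in WT, and its log2 fold change was 0.016 (interval from -0.82 to 0.86).

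The genes of the droplet coat and of droplet assembly gave no call with all 6 libraries, with or without the block. Plin2, the coat protein whose amount follows that of stored lipid in many cells, gave 1452, 1586 and 1699 counts in WT and 1821, 1447 and 1691 counts in Scd-1-/- replicates. The ranges overlapped, and the log2 fold change was 0.017 ± 0.13 (SE; 95% interval from -0.29 to 0.33; adjusted p = 0.98). Plin3, a coat protein that moves between cytosol and droplets, carried 64.0 to 72.1% of the FPKM of the pair. It stood at 45.6 to 54.3 FPKM in WT and at 57.7, 37.6 and 36.2 FPKM in Scd-1-/- replicates 1, 2 and 3 (log2 fold change -0.14, interval from -0.62 to 0.34). With replicates 2 and 3 alone the value of Plin3 was -0.43 (unadjusted p = 0.0087, adjusted p = 0.060). Bscl2, which encodes seipin, a protein of the site where droplets form, had a log2 fold change of -0.078 (interval from -0.42 to 0.26).

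**Figure D2:**
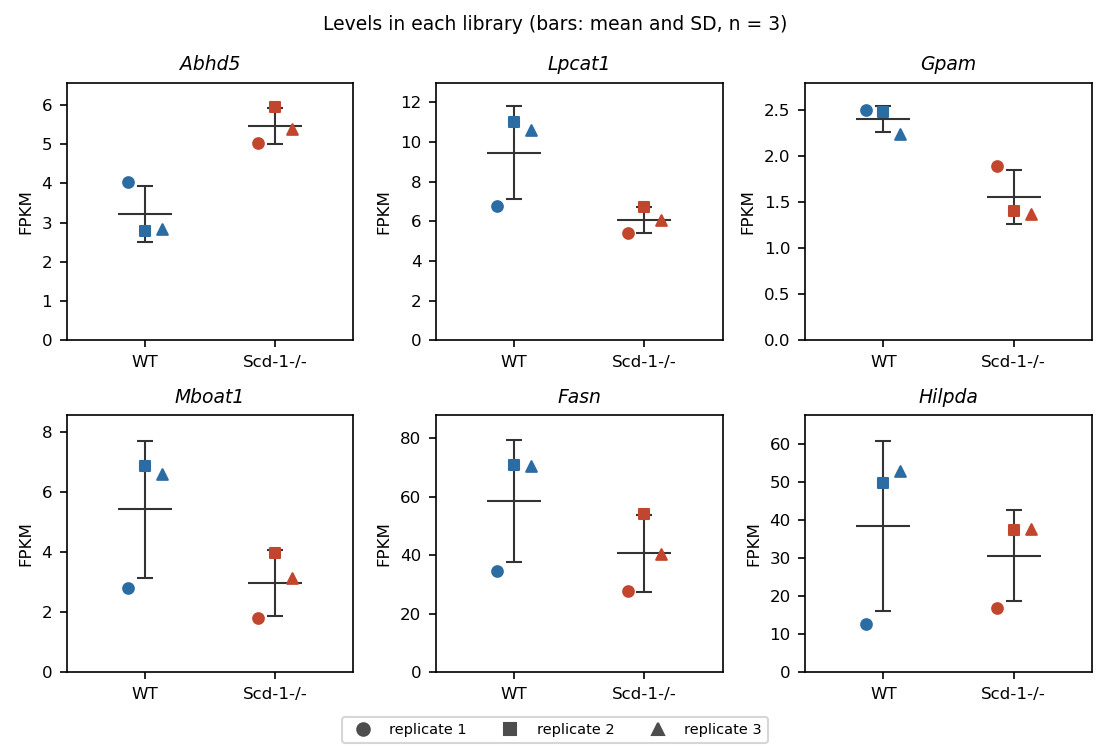
FPKM in each library for Abhd5, Lpcat1, Gpam, Mboat1, Fasn and Hilpda, with a symbol for each replicate number and a bar for the mean and SD of 3 libraries. Abhd5 lies higher and Gpam lower in all Scd-1-/- libraries, and the replicate 1 libraries of both genotypes lie lowest for Mboat1, Fasn and Hilpda.

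Among the genes of lipolysis, Abhd5 was higher in all Scd-1-/- libraries, and the ranges of the lipase it serves overlapped. Abhd5 (chr9:122351608-122381524, plus strand, GRCm38) encodes the cofactor, also called CGI-58, that activates adipose triglyceride lipase. It gave 259, 165 and 171 counts in WT and 331, 355 and 361 counts in Scd-1-/- replicates. All WT libraries lay below all Scd-1-/- libraries, with the highest WT value in replicate 1. The mean of WT was 3.22 ± 0.71 FPKM, and that of Scd-1-/- cells 5.46 ± 0.47 FPKM (SD, n = 3). In edgeR's fit the difference was 0.78 ± 0.21 on the log2 scale (SE; 95% interval from 0.28 to 1.28), or 1.71-fold, with an unadjusted p of 0.0073 and an adjusted p of 0.26 (quasi-likelihood test). In the blocked fit it was 0.80 ± 0.19 (adjusted p = 0.059), and with replicates 2 and 3 alone it was 1.05 (adjusted p = 0.0054).

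Pnpla2, which encodes adipose triglyceride lipase, gave 1619, 1457 and 1294 counts in WT and 1717, 1336 and 1370 counts in Scd-1-/- replicates. The ranges overlapped, and Pnpla2 had a log2 fold change of -0.028 (95% interval from -0.38 to 0.32). The ratio of Abhd5 to Pnpla2 FPKM was 0.265, 0.187 and 0.219 in WT and 0.319, 0.440 and 0.436 in Scd-1-/- replicates, which gives 0.224 ± 0.039 and 0.398 ± 0.069 (SD, n = 3) and no overlap. This ratio was chosen after the values were seen. Lipe, the hormone-sensitive lipase that acts mainly on diacylglycerol, stood at 1.54 to 2.18 FPKM over the 6 libraries (log2 fold change 0.12, interval from -0.35 to 0.59).

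The inhibitors of the lipase were unequal in abundance. Hilpda, an inhibitor of adipose triglyceride lipase that is also induced by hypoxia, gave 319, 1145 and 1234 counts in WT and 429, 866 and 980 counts in Scd-1-/- replicates. Replicate 1 was lowest in both genotypes, and the log2 fold change was -0.30 ± 0.52 (SE; adjusted p = 0.91). For Hilpda it was -0.16 ± 0.17 in the blocked fit and -0.41 with replicates 2 and 3 alone (unadjusted p = 0.0077, adjusted p = 0.056, edgeR). G0s2, the other inhibitor, gave 2 counts in WT replicate 2 and 3 counts in Scd-1-/- replicate 1 and was at 0 in the other 4 libraries, where 0 allows up to 3 counts (counting error only). Mgll, which finishes the hydrolysis of monoacylglycerol, gave 13, 8 and 8 counts in WT and 9, 2 and 0 counts in Scd-1-/- replicates. Neither G0s2 nor Mgll was tested between genotypes.

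Lysophospholipid acyltransferases remodel the chains of membrane phospholipids, and 3 of the 5 tested had lower point estimates in Scd-1-/- cells. Mboat1 (chr13:30136489-30246717, plus strand, GRCm38) encodes an enzyme that prefers oleoyl-CoA as donor and acylates lysophosphatidylserine and lysophosphatidylethanolamine. It gave 170, 385 and 376 counts in WT and 113, 224 and 199 counts in Scd-1-/- replicates. Each Scd-1-/- library lay below the WT library of the same number, although WT replicate 1 lay below 2 of the Scd-1-/- libraries. The mean was 5.43 ± 2.28 FPKM for WT and 2.98 ± 1.09 FPKM for Scd-1-/- cells (SD, n = 3). The log2 fold change of Mboat1 was -0.84 ± 0.40 (SE; adjusted p = 0.53) with all libraries and no block. In the blocked fit Mboat1 fell by 0.81 on the log2 scale, to 56.9% of the WT level (SE 0.16; adjusted p = 0.034).

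Lpcat1 (chr13:73467197-73516422, plus strand, GRCm38) encodes an enzyme that adds saturated chains to lysophosphatidylcholine. It gave 567, 857 and 834 counts in WT and 468, 526 and 531 counts in Scd-1-/- replicates. The genotypes did not overlap, but the gap was thin, with 6.75 FPKM in WT replicate 1 and 6.74 FPKM in Scd-1-/- replicate 2. The mean was 9.46 ± 2.35 FPKM for WT and 6.07 ± 0.65 FPKM for Scd-1-/- cells (SD, n = 3). The log2 fold change was -0.61 ± 0.21 (SE; unadjusted p = 0.020, adjusted p = 0.38), and -0.59 ± 0.13 in the blocked fit (adjusted p = 0.051).

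Mboat7, which puts arachidonate into phosphatidylinositol, stood at 5.30, 4.67 and 4.29 FPKM in WT and at 4.26, 3.57 and 3.38 FPKM in Scd-1-/- replicates (log2 fold change -0.33 ± 0.16, SE; adjusted p = 0.56; blocked unadjusted p = 0.015). The other 2 tested enzymes had point estimates above 0. Lpcat3, which favours polyunsaturated chains, had a log2 fold change of 0.037 (95% interval from -0.25 to 0.33), and Lpcat4 had 0.12 (interval from -0.21 to 0.45). Lpcat4 took 41.5 to 44.0% of the summed FPKM of the 6 genes in WT and 49.7 to 50.9% in Scd-1-/- libraries. Over the same sum, Lpcat1 took 13.4 to 17.3% in WT and 10.3 to 11.9% in Scd-1-/- libraries. Lpcat2 gave at most 10 counts in any library.

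**Figure D3:**
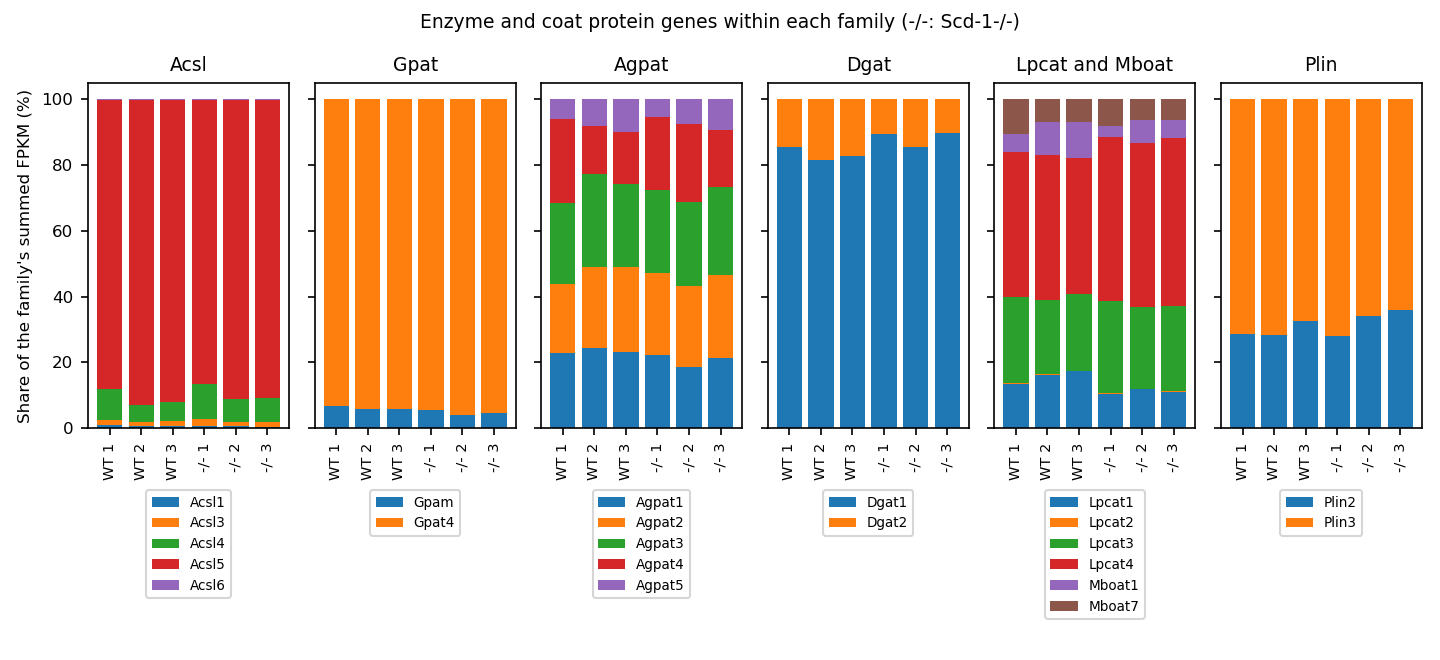
Share of each gene in the summed FPKM of its family, in percent, for each of the 6 libraries. Acsl5, Gpat4 and Dgat1 hold over 80% of their families in every library, whereas the Agpat family is spread over its members, and the share of Lpcat4 is 49.7 to 50.9% in Scd-1-/- against 41.5 to 44.0% in WT libraries. A share also depends on the other genes of the family, and Lpcat4 itself had a log2 fold change of 0.12 (95% interval from -0.21 to 0.45).

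**Figure D4:**
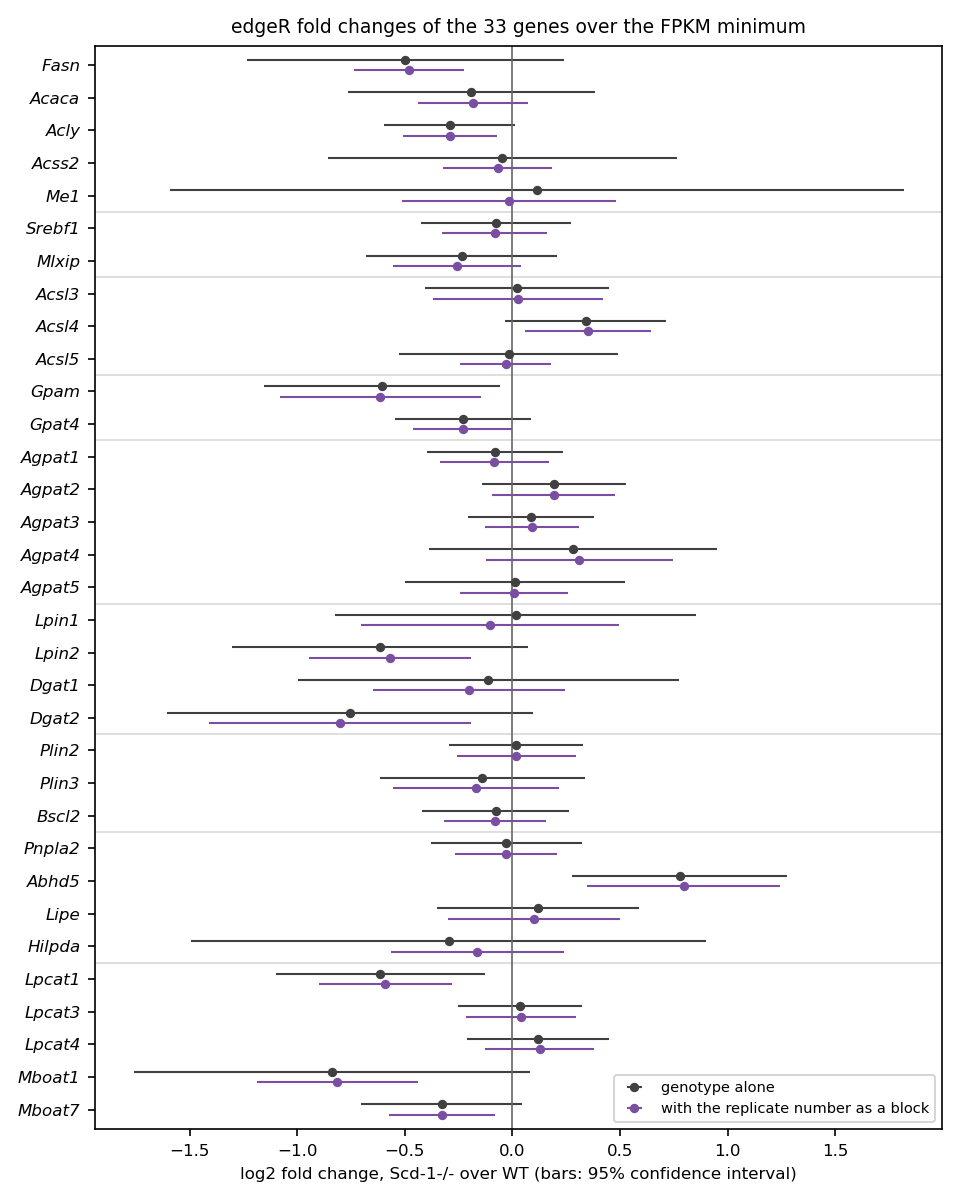
Log2 fold change, Scd-1-/- over WT, with its 95% confidence interval for the 33 genes over the FPKM minimum, from the fit of genotype alone (grey) and with the replicate number as a block (violet). Intervals narrow with the block, for example for Me1, Hilpda, Acss2 and Fasn, and the point estimates of Me1 and Lpin1 turn from above to below 0.

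Some of these genes differed by replicate number. Replicate 1 is set against replicates 2 and 3 here because its libraries were seen to stand apart, so the differences are a description. In an F test of the replicate number within the blocked fit, 9 of the 33 genes had an adjusted p under 0.05 (27.3%, against 15.9% of all genes tested). These were Me1, Acss2 and Dgat1, highest in replicate 1, and Hilpda, Fasn, Mboat1, Acsl5, Acaca and Agpat5, lowest in it. On the log2 scale, replicate 1 of Hilpda lay 1.95 below the mean of replicates 2 and 3 in WT (-1.95) and 1.15 below it in Scd-1-/- cells (-1.15). The same difference was -0.99 and -0.76 for Fasn, -1.22 and -0.96 for Mboat1, and 1.73 and 2.22 for Me1. Over the 33 genes, the median size of the difference was 0.27 in WT and 0.29 in Scd-1-/- cells, and over 9619 genes it was 0.32 and 0.33. The differences in WT and in Scd-1-/- cells had a Pearson r of 0.85 and a Spearman rho of 0.78 across the 33 genes (0.60 and 0.63 across 9619 genes), as a description, since genes are not independent replicates.

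**Figure D5:**
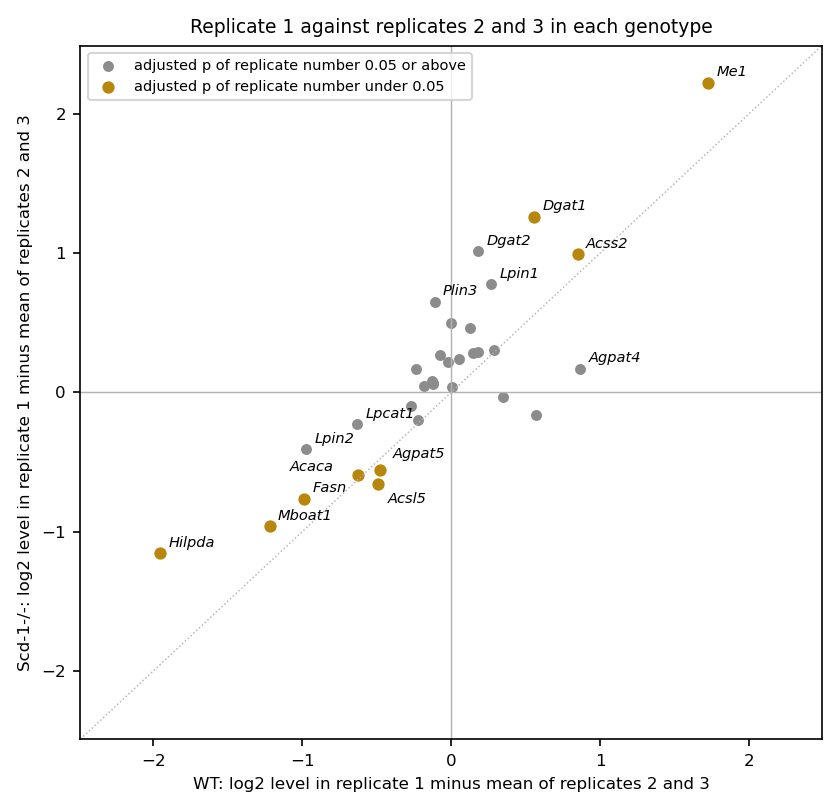
Log2 level in replicate 1 minus the mean of replicates 2 and 3, in WT on the horizontal axis and in Scd-1-/- cells on the vertical axis, for the 33 genes, with the 9 genes with an adjusted p under 0.05 for replicate number in gold. Me1, Acss2 and Dgat1 lie high in both genotypes and Hilpda, Mboat1 and Fasn low in both.

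The neighbours of these genes in the pathway were counted in the same way. Of 93 other genes with a row in the tables, 58 reached the FPKM minimum, and 0 met the study's thresholds or an adjusted p of 0.05 (edgeR, DESeq2). An unadjusted p under 0.05 was reached by 2 (3.45%, against 10.1% of all genes tested) by 8 in the blocked fit (13.8%, against 22.4%) and by 16 with replicates 2 and 3 alone (27.6%, against 29.4%). The 2 were chosen for naming after their values were seen, and both were listed in the group of phospholipid head group enzymes. Pisd, which makes phosphatidylethanolamine in mitochondria, gave 699, 720 and 823 counts in WT and 545, 501 and 638 counts in Scd-1-/- replicates (log2 fold change -0.46 ± 0.15, SE; adjusted p = 0.36). Cds2, which makes CDP-diacylglycerol, gave 3153, 3089 and 2999 counts in WT and 2613, 2652 and 2409 counts in Scd-1-/- replicates (log2 fold change -0.31 ± 0.12, SE; adjusted p = 0.47). In both genes all Scd-1-/- libraries lay below all WT libraries. Levels scaled by TMM did not overlap between the genotypes for 6 of the 58 genes (10.3%, against 16.0% of all genes tested). By group, 9 of 14 genes of lipogenic supply and regulation had a point estimate below 0, as had 4 of 8 genes of uptake, binding and activation, 5 of 7 of glycerolipid assembly, 10 of 15 of the head group enzymes and 5 of 14 of other droplet proteins and lipases. Together 33 of the 58 lay below 0, as did 4823 of all 9627 genes tested. Over the 58 genes the median log2 fold change was -0.052. Under the minimum, Cd36 and Slc27a6 were picked after their values were seen. Cd36 gave 25, 4 and 5 counts in WT and 20, 49 and 41 counts in Scd-1-/- replicates (log2 fold change 1.68 ± 0.68, SE, adjusted p = 0.50, edgeR). Slc27a6 gave 15, 6 and 20 counts in WT and 24, 37 and 45 in Scd-1-/- replicates (1.32 ± 0.51, SE, adjusted p = 0.47, edgeR). With replicates 2 and 3 alone edgeR gave 3.26 (adjusted p = 5.98e-07) and 1.61 (adjusted p = 0.0088), past the thresholds of the study.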

How the data were processed

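RNA of 6 Teff cultures was sequenced. Per the labels, the reads were aligned with HISAT2 to GRCm38 and counted with StringTie 1.3.0. The authors deposited for each library whole-number counts and FPKM per Ensembl gene, the FPKM being counts over gene length and library total without a TMM factor. The labels and the methods name different RNA and library kits, and whether counting used strand is not given in the sources used here, so Acss2, Srebf1, Acsl3, Acsl5, Agpat2, Lpcat3, Mboat7, G0s2 and Bscl2, which overlap other genes with reads, are uncertain. Counts were tested here with edgeR 4.0.16 (TMM, quasi-likelihood, genotype, mean FPKM of at least 1, Benjamini-Hochberg adjustment over 9627 genes) in R 4.3.3. Genes under this minimum were read from a fit to 17192 genes, and genes under 20 counts in every library are given as counts only. SE was the log2 fold change over the root of F. DESeq2 1.42.0, limma 3.58.1 on log2(FPKM + 1) or log2(FPKM + 0.1), other filters, median-ratio factors, the replicate block and leaving out each library were alternatives. The fit of replicates 2 and 3 and the F test of replicate number were added after the data were seen. Deviations of same-numbered libraries from their genotype means correlated (r of 0.595, 0.306 and 0.470 for replicates 1, 2 and 3), so the numbers were taken to pair the libraries, although WT replicate 3 with Scd-1-/- replicate 2 gave 0.380 and WT replicate 2 with Scd-1-/- replicate 3 gave 0.180, so replicates 2 and 3 were not told apart. Counts in every library are printed for genes with an unadjusted p under 0.05, or an adjusted p under 0.05 in the blocked fit, and for Fasn, Acaca, Acly, Srebf1, Dgat1, Dgat2, Plin2 and Pnpla2, and for others chosen after their values were seen. Positions are of GENCODE M21 (GRCm38), matched for 98.85% of genes. Of 10 myeloid markers 9 had a single row, with a summed level of 8.80 to 19.9 FPKM in WT and 11.9 to 36.5 FPKM in Scd-1-/- libraries. Summed CD4 T cell (6.15 to 12.2 and 8.01 to 11.2 FPKM), B cell (9.44 to 10.9 and 3.15 to 8.05), erythroid (1.12 to 2.81 and 0.235 to 1.83) and platelet markers (0.144 to 0.224 and 0.184 to 0.541) are given for WT and Scd-1-/- in that order, and adipocyte markers stayed under 0.134. The genes and lists were chosen with earlier results of these data known.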

Additional observations from a re-analysis of the deposited data

How the results depend on the processing

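The number of the 33 genes past the thresholds of the study was 0 under each other filter, scaling and tool, with the replicate block and without any 1 library, and 1 with replicates 2 and 3 alone. With an adjusted p under 0.05 there were 1 in the blocked fit, 6 with replicates 2 and 3 alone and 0 in the other alternatives. With an unadjusted p under 0.05 there were 11 in the blocked fit and 14 with replicates 2 and 3 alone, and 1 to 8 when 1 library was left out (8 without WT replicate 1, 24.2% against 16.3% of all genes tested; 6 without Scd-1-/- replicate 1, 18.2% against 16.4%; 1 without WT replicate 2 or 3, 3.03% against 5.56% and 6.93%). Among the 58 other pathway genes these counts were 8, 16 and 0 to 9 (9 without Scd-1-/- replicate 1, 15.5%, and 0 without WT replicate 3). With the filterByExpr filter, 4 of 66 such genes passed (6.06%, against 10.5% of all genes tested). With replicates 2 and 3 alone, 3 of the 58 (5.17%, against 12.6%) had an adjusted p under 0.05, Acss1 and Pcyt2 lower and Dbi higher. At the thresholds of the study and at an adjusted p of 0.05, the block changed no call other than that of Mboat1.

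Of 36 genes with a fold change, 23 kept their direction in every alternative run for them (Acacb, Acsl1 and Acsl6, under the FPKM minimum, were not run under the other filters), and the 13 that did not had a main size of at most 0.19. It turned to -0.016, -0.14, -0.048 and -0.0050 for Agpat5, Lpin1, Me1 and Plin2 with limma at a pseudocount of 0.1, to -0.013, -0.11, -0.0027 and -0.0050 at 1, and to -0.10 and -0.015 for Lpin1 and Me1 with the block. With replicates 2 and 3 alone it was -0.052 for Acsl3, 0.024 for Acsl5, -0.067 for Lipe, -0.025 for Lpcat3, -0.20 for Lpin1, -0.22 for Me1 and -0.12 for Plin2. Over the fits that left out 1 library, it ranged from -0.37 to 0.017 for Acaca, -0.46 to 0.30 for Acss2, -1.04 to 0.94 for Me1, -0.17 to 0.032 for Srebf1, -0.036 to 0.089 for Acsl3, -0.16 to 0.17 for Acsl5, -0.13 to 0.17 for Agpat5, -0.29 to 0.36 for Lpin1, -0.66 to 0.13 for Dgat1, -0.057 to 0.067 for Plin2, -0.13 to 0.047 for Pnpla2, -0.068 to 0.20 for Lipe and -0.0023 to 0.088 for Lpcat3. The cause was not tested. Over the same fits, the range was 0.68 to 0.99 for Abhd5, -0.79 to -0.48 for Lpcat1, -0.77 to -0.52 for Gpam and -1.14 to -0.58 for Mboat1. It was -0.76 (without WT replicate 1) to -0.29 (without Scd-1-/- replicate 1) for Fasn, -0.71 to -0.0042 for Hilpda without the same libraries, -0.87 (without WT replicate 1) to -0.37 (without WT replicate 3) for Lpin2, and -1.18 to -0.53 for Dgat2 and -1.72 to -0.57 for Acacb (without Scd-1-/- replicates 1 and 3). The range was 0.13 (without WT replicate 2) to 0.63 (without WT replicate 1) for Agpat4, -0.39 (without Scd-1-/- replicate 1) to -0.022 (without Scd-1-/- replicate 3) for Plin3, and -0.35 (without Scd-1-/- replicate 2) to -0.065 (without Scd-1-/- replicate 3) for Mlxip. For Gpat4 it was -0.30 to -0.15, for Agpat1 -0.17 to -0.043, for Agpat3 0.018 to 0.16, for Bscl2 -0.18 to -0.0079 and for Lpcat4 0.035 to 0.23.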

Other observations

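Gpam and Acsl5 lie on chromosome 19, 10.7 and 10.9 Mb from the targeted Scd1 gene, and Bscl2 lies on the same chromosome at -35.56 Mb, on the other side. Within 20 Mb of Scd1, 16 of 147 genes tested had an unadjusted p under 0.05 between genotypes (10.9%), 8 of them lower in Scd-1-/- cells, over the rest of the chromosome 13 of 211 did (6.16%), and over all genes tested the share was 10.1%. The part of this position in the Gpam result was not tested.

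The ratio of Fasn to Acaca FPKM was 13.2, 19.6 and 15.0 in WT and 11.9, 15.8 and 11.1 in Scd-1-/- replicates, with overlap. The ratio of Hilpda to Pnpla2 FPKM was 0.840 in WT replicate 1 and 1.065 in Scd-1-/- replicate 1, and 2.76 to 4.06 in the other 4 libraries.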
